A study of Arabidopsis thaliana with 12 samples.

Results

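The photosystems are the pigment-protein complexes of the chloroplast thylakoid membrane that turn absorbed light into electron flow. Photosystem II splits water and passes electrons to a carrier chain, and photosystem I drives them on to ferredoxin. Antenna proteins feed excitation energy into both, small structural subunits stabilise the complexes, and assembly factors build photosystem II and rebuild it after light damage. This account covers 6 nuclear genes of that machinery in Arabidopsis thaliana, chosen by name from the probes whose platform annotation gives exactly 1 gene: 4 structural genes (LHB1B2, PSAN, PSBW and PSBY) and 2 photosystem II assembly factors (LPA19 and PSB27). They are 6 of 692 probes that name 1 gene, on an array of 3439 probes in all.

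All plants were wild type of the ecotype Landsberg. The dark group (6 samples) had been adapted to darkness for 12 h, and the light group (6 samples) received 30 min of light following the same 12 h of darkness. The sources used here give no organ, plant age or light intensity. Dark plants were not sampled 30 min later, so the effects of light and of elapsed time cannot be told apart. In bulk RNA, fewer cells of a type and less RNA per cell cannot be told apart either. Of 28 marker genes listed for green tissue, root, pollen and seed, 25 were found in the TAIR10.1 gene table. The 3 pollen genes were not found there and were not looked up on the array. None of the 25 had a probe that names 1 gene, so the kind of tissue could not be checked.

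Intensities were deposited on a linear scale that reaches 100. Their sum over all probes ran from 3247 to 3321 on dark arrays and from 3532 to 3666 on light arrays, and the array median lay between 0.443 and 0.491 in the dark and between 0.666 and 0.687 in light. The brightest probe stood at 100 on each dark array and between 65.7 and 77.6 on the light arrays. The light arrays thus held more intensity in the middle of the distribution and less at its top. Because of this, a gene was described by its deposited intensity, by its rank among all probes on the array, which no scaling of a whole column can alter, and by the difference between groups after quantile normalization, which gives every array the same distribution. Samples with consecutive numbers (1 and 2, 3 and 4, 5 and 6) resembled each other across all probes, so each such pair was averaged and 3 dark pair means were compared with 3 light pair means in limma. A probe was called at a Benjamini-Hochberg adjusted p under 0.05 over all 3439 probes.

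After quantile normalization 3 of the 6 genes were called lower in light (LHB1B2, PSAN and LPA19), 1 was called higher (PSBW, whose difference was -0.46 and not called with arrays centred on their median), and PSBY and PSB27 were not called. Of all probes, 19.7% were called lower and 15.1% higher by the same rule. A count of 3 in 6 or 1 in 6 is therefore read only as a description of these genes. The median difference (log2, light minus dark) was -0.56 over the 6 genes and 0.01 over all probes.

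**Figure D1:**
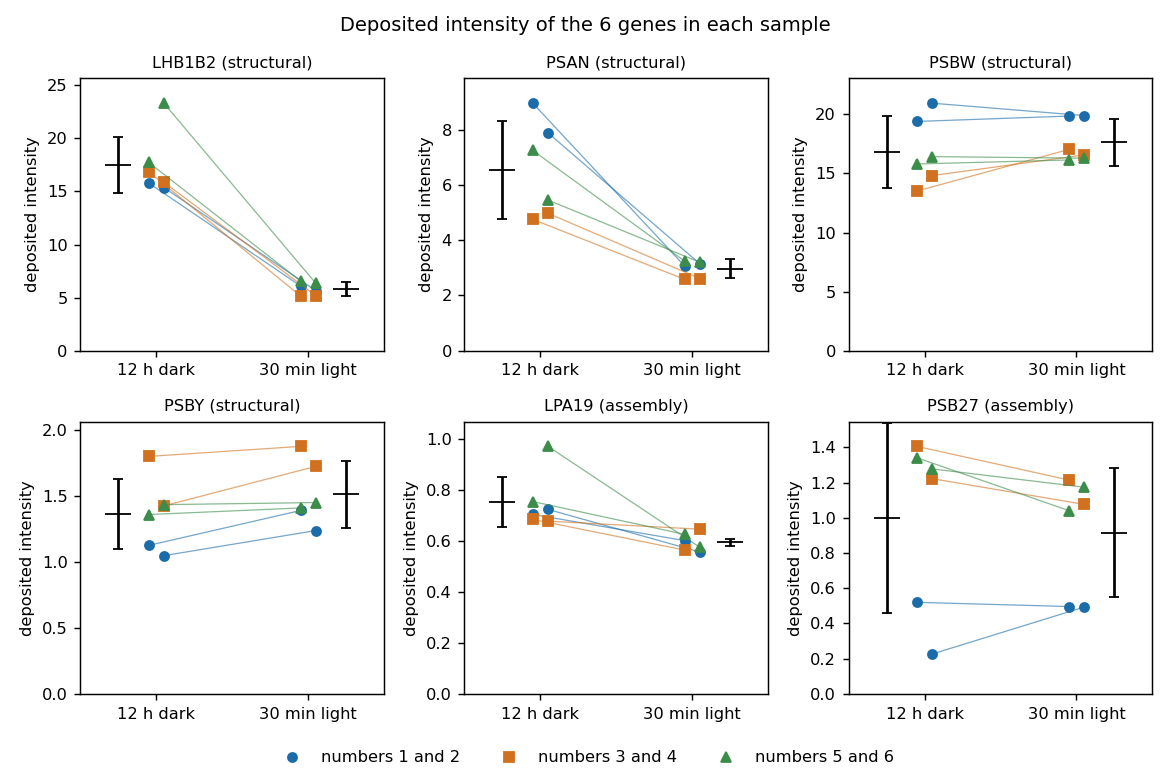
Deposited intensity (linear scale from 0) of the 6 genes in every sample, with 12 h dark at the left of each panel and 30 min light at the right. Each point is a sample, lines join samples of equal number, colours and symbols mark the pairs of consecutive numbers, and black marks with bars give the mean ± SD of the 3 pair means. LHB1B2, PSAN and LPA19 show no overlap between groups, while in PSB27 samples 1 and 2 lie apart from the rest in both groups. The share of all probes without overlap in deposited intensity was not counted, so this only describes these genes.

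LHB1B2 (AT2G34420) encodes a chlorophyll a/b-binding protein of the major antenna of photosystem II, the light-harvesting complex II. Its deposited intensity in dark samples 1 to 6 was 15.8, 15.4, 16.9, 15.9, 17.7 and 23.3. In light samples 1 to 6 it was 6.10, 5.66, 5.15, 5.19, 6.56 and 6.35. The highest light value, 6.56, lay far below the lowest dark value, 15.4. The dark pair means averaged 17.5 ± 2.66 and the light pair means 5.83 ± 0.645 (SD, n = 3 each), so that the light mean was 0.334 of the dark mean as deposited. The gene held between 0.466% and 0.705% of the summed intensity of a dark array and between 0.144% and 0.184% of a light array. Its rank went from between 12 and 20 in the dark to between 38 and 61 in light, so it stayed among the brightest probes in both groups. After quantile normalization it fell by 1.26 ± 0.19 on the log2 scale (SE, limma adjusted p = 0.00413), with differences of -1.08, -1.47 and -1.24 in the 3 pairs. Of the 692 probes that name 1 gene, 23 had a lower difference. LHB1B2 was called lower with each pair left out in turn and under each of the 5 scalings tried. Its neighbour in the TAIR10.1 annotation is LHB1B1 (AT2G34430), another gene of the same antenna family that had no probe of its own here. The copies are close in sequence, so the signal may be shared between them, which was not tested.

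PSAN (AT5G64040) encodes a subunit of photosystem I on the lumen side of the membrane, where the electron donor plastocyanin docks. Its deposited intensity in dark samples 1 to 6 was 8.96, 7.89, 4.76, 4.98, 7.25 and 5.45. In light samples 1 to 6 it was 3.06, 3.15, 2.58, 2.61, 3.24 and 3.20. The dark values were spread widely and highest in samples 1 and 2, whereas the light values were close together, and the groups did not overlap. The dark pair means averaged 6.55 ± 1.79 and the light pair means 2.97 ± 0.331 (SD, n = 3 each). The rank moved from between 36 and 77 to between 101 and 156. The normalized level fell by 0.99 ± 0.21 on the log2 scale (SE, limma adjusted p = 0.0153). The pairs gave -1.36, -0.87 and -0.73, with the most negative in samples 1 and 2. Without samples 1 and 2 the difference was -0.81 and no longer called (limma adjusted p = 0.0875), and without samples 5 and 6 it was -1.10 (limma adjusted p = 0.0691). These fits rest on 2 pairs a group.

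PSBW (AT2G30570) encodes a small membrane-spanning subunit of photosystem II that helps to hold the antenna to the core. Its deposited intensity in dark samples 1 to 6 was 19.4, 20.9, 13.5, 14.8, 15.8 and 16.4. In light samples 1 to 6 it was 19.9, 19.9, 17.0, 16.6, 16.1 and 16.3. The groups overlapped, and in both of them samples 1 and 2 were the brightest. The dark pair means averaged 16.8 ± 3.07 and the light pair means 17.6 ± 1.97 (SD, n = 3 each), a difference of 0.08 on the log2 scale as deposited (limma adjusted p = 0.746). Its share of the summed intensity averaged 0.512% on dark arrays and 0.490% on light arrays. By rank, however, PSBW moved up from between 16 and 22 to between 12 and 15, with no overlap. After quantile normalization it rose by 0.50 ± 0.13 on the log2 scale (SE, limma adjusted p = 0.0295), with 0.40, 0.54 and 0.55 in the pairs, but it stood at -0.46 with arrays centred on their median. The rise stands beside the lower top of the light arrays given above, and the part of that in it was not tested. Without samples 3 and 4 the difference was 0.50 (limma adjusted p = 0.145) and without samples 5 and 6 it was 0.48 (limma adjusted p = 0.167), neither of them called.

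PSBY (AT1G67740) encodes a small subunit of photosystem II found beside cytochrome b559. Its deposited intensity in dark samples 1 to 6 was 1.13, 1.05, 1.80, 1.43, 1.36 and 1.43. In light samples 1 to 6 it was 1.39, 1.24, 1.88, 1.72, 1.41 and 1.45. The groups overlapped over most of their range. In each group samples 1 and 2 were the lowest and sample 3 the highest. The rank lay between 230 and 550 in the dark and between 260 and 619 in light. The normalized difference was -0.06 ± 0.19 on the log2 scale (SE, limma adjusted p = 0.833), and its 95% interval ran from -0.53 to 0.41. A change of about the size seen for LHB1B2 lies outside that interval, and a change of the size seen for LPA19 does too.

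LPA19 and PSB27 are both relatives of the cyanobacterial lumen protein Psb27. LPA19 (AT1G05385) assists the processing of the precursor of D1, a reaction centre protein, while photosystem II is being built, and PSB27 (AT1G03600) is needed for efficient repair of photodamaged photosystem II. The deposited intensity of LPA19 in dark samples 1 to 6 was 0.705, 0.724, 0.685, 0.678, 0.755 and 0.972. In light samples 1 to 6 it was 0.602, 0.557, 0.564, 0.647, 0.626 and 0.575. The groups did not overlap, although the gap between them was narrow, and dark sample 6 stood above the others. The dark pair means averaged 0.753 ± 0.0968 and the light pair means 0.595 ± 0.0140 (SD, n = 3 each).

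The rank of LPA19 dropped from between 617 and 1152 to between 1835 and 2092, without overlap. Its intensity lay nearer the array median than that of LHB1B2 or PSAN, so the number of places moved is not compared between genes. In terms of the whole array, its median rank went from 28.4% of the probes down from the top to 57.3%. Its deposited mean went from 0.753 to 0.595, while the array median rose from between 0.443 and 0.491 to between 0.666 and 0.687. The part of that rise in the drop of rank and normalized level was not tested. The normalized level fell by 0.79 ± 0.13 on the log2 scale (SE, limma adjusted p = 0.00561), with -0.80, -0.63 and -0.95 in the pairs. As deposited, the difference was -0.33, with a 95% interval from -0.69 to 0.03 (limma adjusted p = 0.117). Its call thus depended on how the arrays were scaled. Without samples 5 and 6 the normalized difference was -0.71 and was not called (limma adjusted p = 0.0567).

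The deposited intensity of PSB27 in dark samples 1 to 6 was 0.520, 0.227, 1.41, 1.22, 1.34 and 1.28. In light samples 1 to 6 it was 0.496, 0.493, 1.22, 1.08, 1.04 and 1.17. In both groups samples 1 and 2 stood far below the other 4, by more than light and dark differed. The pair means of the normalized log2 level spanned a range of 1.68 in the dark and 1.28 in light. Only 4.04% of all probes had a wider range between pairs in the dark and 2.85% in light. The median range over all probes was 0.52 in the dark and 0.31 in light. Dark samples 1 and 2 also differed from each other by 1.18 on the log2 scale, whereas light samples 1 and 2 lay close together.

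The normalized difference of PSB27 was -0.33 ± 0.57 on the log2 scale (SE, limma adjusted p = 0.684), with a 95% interval from -1.73 to 1.06, the widest of the 6 genes. The pairs gave -0.05, -0.45 and -0.50, and the light value was lower than the dark value of the same number in 5 of 6 numbers. With the pair as a block, which removes the shared low level of samples 1 and 2, the 95% interval narrowed to -0.71 to 0.04 and the difference was still not called (limma adjusted p = 0.124). Without samples 1 and 2 it was -0.48 (limma adjusted p = 0.0537). A difference of the size of LPA19's, -0.79, lies inside the interval of the fit without the block and outside that of the fit with it. Smaller falls lie inside both.

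**Figure D2:**
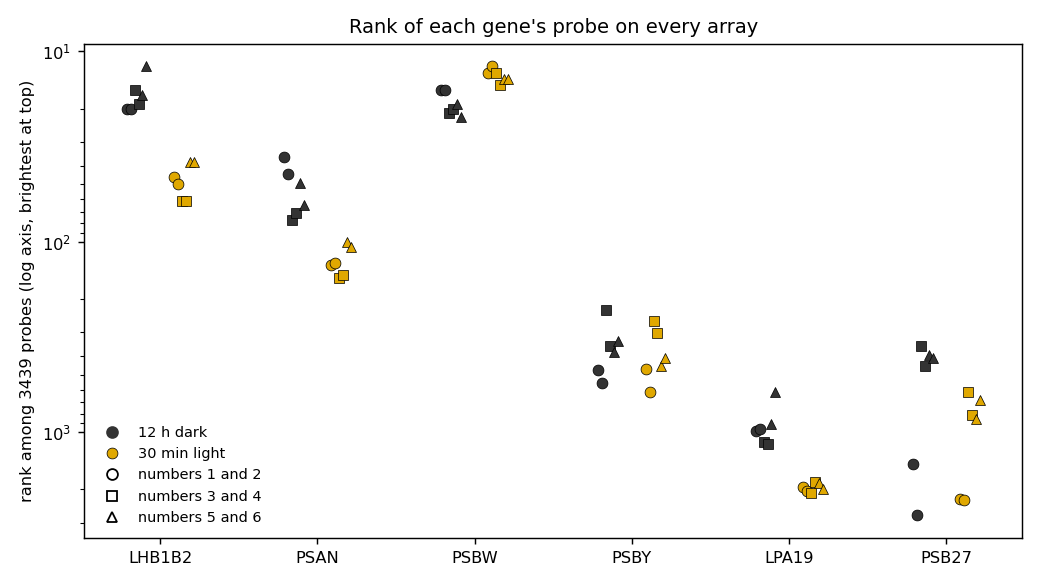
Rank of each gene among the 3439 probes of an array (log axis, brightest probe at the top), with dark samples in dark grey and light samples in yellow. Each symbol is a sample and its shape marks the pair of consecutive numbers. LHB1B2, PSAN and LPA19 rank lower in every light sample than in any dark sample, PSBW ranks higher in every light sample, and PSBY and PSB27 overlap.

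Ranks gave the same 4 genes as the normalized levels, as they must to a large extent, since quantile normalization assigns values by rank. For 3 of the 6 genes every light sample ranked lower than every dark sample, against 19.9% of all probes. For 1 of the 6 every light sample ranked higher, against 15.2% of all probes. LHB1B2 and PSBW had overlapping ranks in the dark, between 12 and 20 and between 16 and 22, and lay apart in light, between 38 and 61 and between 12 and 15. A rank depends on the probe as well as on the transcript, so only its move between groups is read here, not which gene had more transcript.

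The calls of 3 of the 6 genes changed with the scaling of the arrays. As deposited, 2 genes were called lower (LHB1B2 at -1.57 and PSAN at -1.10, log2 difference) and 0 higher, while 8.75% of all probes were called lower and 32.8% higher. With each column scaled to the same total, again 2 were called lower and 0 higher, against 11.1% and 25.8% of all probes. With each array centred on its median, 3 were called lower (LHB1B2 at -2.11, PSAN at -1.64 and LPA19 at -0.87) and 0 higher, against 22.0% and 12.3% of all probes. With cyclic loess, 2 were called lower (LHB1B2 at -0.92 and LPA19 at -0.82) and 1 higher (PSBW at 0.84), against 17.9% and 15.7% of all probes. LHB1B2 was thus called lower in each of the 5, and PSAN in all but loess, where its difference was -0.59 (limma adjusted p = 0.0542, and 0.0273 with the pair as a block). The direction of PSBW was not settled, being 0.50 after quantile normalization, 0.08 as deposited, -0.05 at equal totals and -0.46 with centred arrays (limma adjusted p = 0.119, and 0.0484 with the pair as a block). LPA19 had a negative difference in each of the 5, called in 3 of them, and at equal totals it stood at -0.46 (limma adjusted p = 0.0508, and 0.0436 with the pair as a block). PSBY was called in none of them, with differences from -0.38 to 0.16. PSB27 was called in none, with differences from -0.51 to 0.03, except with centred arrays and the pair as a block (limma adjusted p = 0.0442). The median difference of all probes was 0.44 as deposited, 0.31 at equal totals, -0.10 with centred arrays and 0.04 with loess. Over the 6 genes the median difference was -0.15, -0.28, -0.69 and -0.47 in the same order. The first 3 of these scalings differ only by a constant per array and so give 1 comparison of the 6 genes with all probes, not 3.

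**Figure D3:**
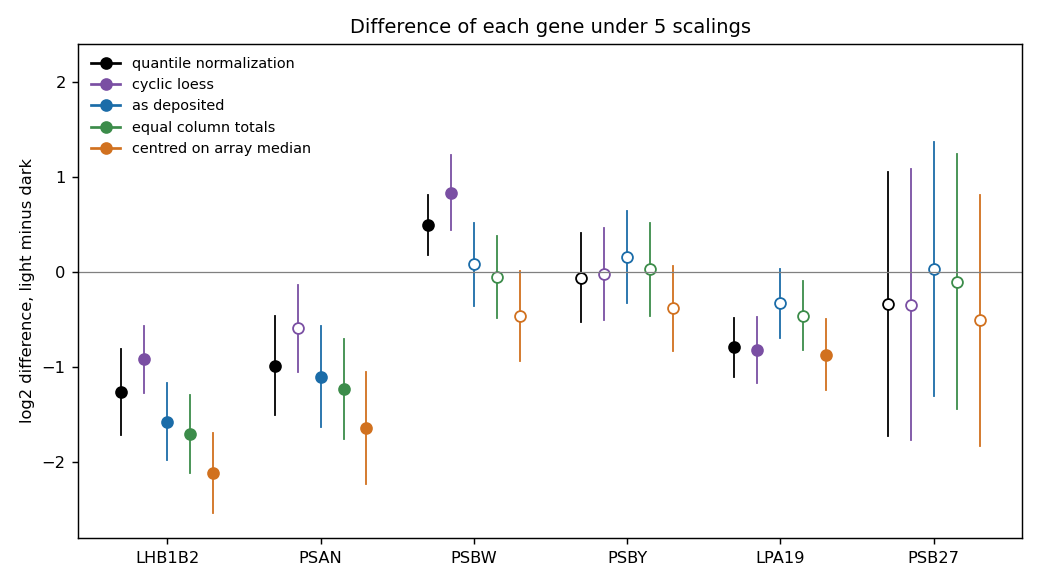
Log2 difference (light minus dark) of each gene under 5 scalings of the arrays, with 95% intervals from limma on 3 pair means a group. Filled symbols were called at an adjusted p under 0.05 and open symbols were not. LHB1B2 lies below 0 and is called under each scaling, while PSBW runs from 0.84 with loess to -0.46 with centred arrays.

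Unequal change of a pair of genes on the same arrays does not depend on a common factor per array. It can depend on a scaling that changes the shape of the distribution, such as quantile normalization or loess. The difference of PSBW less that of PSBY was 0.56 after quantile normalization, -0.08 as deposited and 0.85 with loess. PSAN less LPA19 was -0.19, -0.77 and 0.23 in the same order. The difference of LHB1B2 less that of PSBW, both structural genes of photosystem II, was -1.76 ± 0.269 on the log2 scale after quantile normalization (SD, n = 3 pairs of samples), with -1.48, -2.01 and -1.79 in the pairs. It was -1.65 ± 0.261 as deposited, where scaling to equal totals or centring leaves it the same, and -1.75 with loess. PSAN less PSBW gave -1.48 ± 0.248 after quantile normalization and -1.18 ± 0.223 as deposited (SD, n = 3 each). LHB1B2 and PSAN did not part clearly, at -0.27 ± 0.487 (SD, n = 3), with a positive value in samples 1 and 2 and negative ones in the others. PSBY less LPA19 gave 0.74 ± 0.0877 after quantile normalization and 0.49 ± 0.128 as deposited (SD, n = 3 each). Of the 15 combinations of the 6 genes, 9 had the same sign in all 3 pairs of samples both after quantile normalization and as deposited, and kept the sign of their mean with loess. The 15 combinations reuse the same 6 genes, and the share among combinations of other probes was not counted. The count therefore only describes these genes, and the contrasts between chosen genes carry no test.

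Structural genes against assembly factors gave no steady contrast. After quantile normalization the mean log2 difference was -0.45 ± 0.0633 for the 4 structural genes and -0.56 ± 0.153 for the 2 assembly factors (SD, n = 3 pairs each). The structural mean less the assembly mean was -0.09, 0.09 and 0.34 in the pairs, so its sign changed between them. It was -0.46 ± 0.264 as deposited, at equal totals and with centred arrays, and 0.41 ± 0.258 with loess (SD, n = 3 each).

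**Figure D4:**
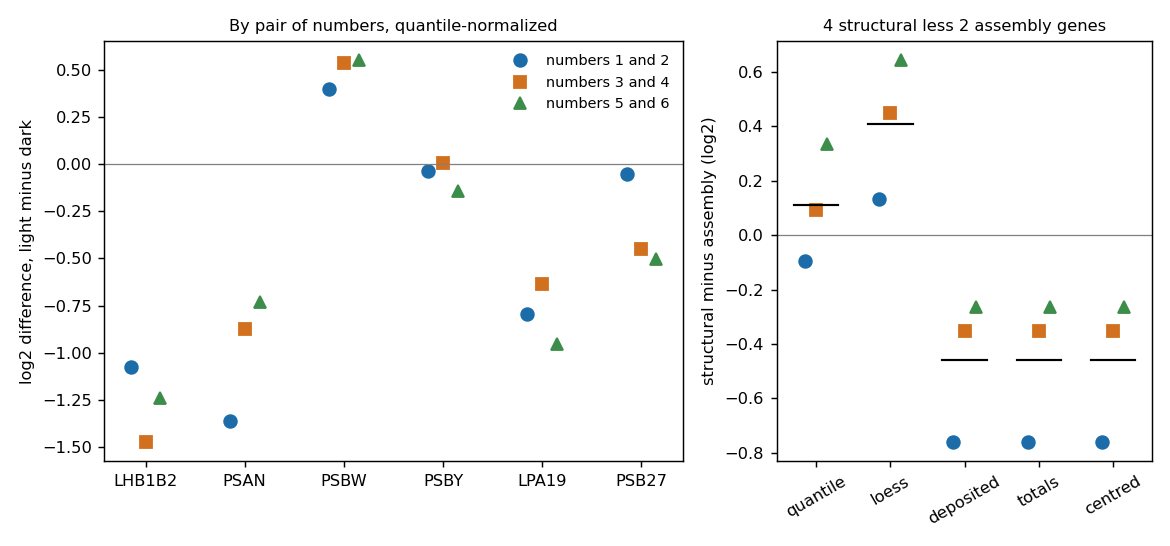
Left, the log2 difference (light minus dark) of each gene in the 3 pairs of consecutive numbers after quantile normalization. Right, the mean difference of the 4 structural genes less that of the 2 assembly factors under 5 scalings, with points for pairs and bars for their mean. The contrast between the classes is below 0 as deposited, at equal totals and with centred arrays, above 0 with loess, and on either side of 0 after quantile normalization.

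The genes most like each member were found among 491 other probes that name 1 gene and had a mean level over the 25th percentile of all probes. Likeness was the Pearson correlation of normalized log2 values over the 12 samples, which fall into 2 groups and share the pairs of numbers, so it describes group and pair together and carries no test. LHB1B2 was most like AT4G35980 and AT1G01730, at 0.973 and 0.972. PSAN was most like RALFL32 (AT4G14010), at 0.976, and AT5G56070, at 0.960. PSBW was most like AT4G39690, at 0.961, and AT1G01250, at 0.947. LPA19 was most like AT4G05070 and AT2G48130, at 0.972 and 0.965. PSB27 was most like CBL (AT3G57050), at 0.953, and AT2G41120, at 0.900. For PSBY the nearest were AT2G29870 and AT5G42070, at only 0.747 and 0.743. The lowest deposited light values of CBL, AT2G41120 and AT5G42070 were 0.0126, 0.0538 and 0.0830. Their lowest dark values were 0.0490, 0.00379 and 0.137, and that of AT1G01250 was 0.106. The 5th percentile of positive values, used as a floor, was 0.153 to 0.178 on the light arrays and 0.104 to 0.141 on the dark arrays. The correlations of these genes therefore include values at or near the floor.

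No other gene of the functional lists could be set beside these 6. Of 164 genes listed by function (subunits of both photosystems, antenna, assembly and repair, cytochrome b6f and electron carriers, ATP synthase and state transition enzymes), 144 were found in the TAIR10.1 gene table under the listed name. Of these, 6 had a probe that names 1 gene, and they are the 6 genes described here. Another 7 occurred only on probes annotated with several genes, which are not used for named genes. Listed names not found in the gene table were not looked up on the array. The lists do not cover every gene of the light reactions. Genes of the chloroplast NDH complex that have a probe of their own are not compared here.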

How the data were processed

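RNA of 12 Arabidopsis samples had been hybridised to an array, and 1 table holds a value per probe and sample. The values deposited by the authors are intensities on a linear scale. How the authors corrected background or scaled them is not given in the sources used here, and no measure of depth or background accompanies them, so the number of samples limits the precision. Every column was used.

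Samples were grouped and numbered from their titles. Values were quantile-normalized, raised to a floor (the 5th percentile among positive values), and put on a log2 scale. None of the 72 values of the 6 genes was at the floor. Samples with consecutive numbers were averaged, and limma 3.58.1 (lmFit and eBayes, R 4.3.3) tested light against dark, with no block. All p-values are two-sided. The fit was also run on simulated normalized values, with pair effects drawn separately for dark and light. That run does not cover the scaling of the arrays or the pairing across groups. The members, the gene lists and the averaging were chosen with earlier results of these data known. No label says what a number marks or that samples came from separate plants, so p-values measure only the spread between pair means, which may be technical.

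Deviations from the group means correlated across probes at 0.411 to 0.648 between dark and light samples of equal number, and at 0.447 to 0.652 between equal pairs, so by the criterion of over 0.1 the numbers pair the samples. This comes from the data, not from a label. The main fit leaves the pairing out, so its intervals include spread that dark and light samples of a pair share. Consecutive dark numbers correlated at 0.422 to 0.596, and consecutive light numbers at 0.358 to 0.473.

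The platform annotation named 1 gene for 692 probes, several for 870, and 1877 are unnamed here. TAIR10.1 names were matched for 690 of the 692. The genes named are the 6 members, any gene of the functional lists with its own probe, and for each member the 2 most correlated genes. Alternatives varied the units, block, scaling, floor, filter and samples. Scaling to equal totals was added after seeing the data. The promoter motif search that had been planned was not run, and no sequence is shown.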

Additional observations from a re-analysis of the deposited data

Results flagged for a closer look

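Among 16 groups of 6 values examined (the 6 genes in each group, the array medians and the counts of probes at 0), 2 held a sample far from the others. Chance alone gives about 1 in 20 such groups. Dark sample 6 had the highest normalized log2 level of LHB1B2, 4.45, where the other dark samples ranged from 3.77 to 4.02, and the difference without that sample was -1.16 (limma adjusted p = 0.00346). Dark sample 2 listed 108 probes at 0, against 123 to 131 on the other dark arrays. It is also the sample in which PSB27 was lowest, and without it the difference of PSB27 was -0.53 (limma adjusted p = 0.417).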

How the results depend on the processing

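LHB1B2 kept its direction and its call under each of 14 alternatives, at -2.11 to -0.92 on the log2 scale, and with any pair or sample left out. PSBY and PSB27 were called in none of the 14. With pairs averaged and the pair as a replicate block, 1583 probes were called instead of 1199, and no call of the 6 genes changed. With 6 against 6 samples, 1807 probes were called, 811 of them higher, and with the number as a replicate block 2069 (966 higher and 1103 lower). The 6 genes kept their calls in both. With even numbers only, PSBW stood at 0.44 (limma adjusted p = 0.0822). As deposited, 1128 probes were called higher and 301 lower, with 2 of the 6 genes called, PSBW at 0.079 and LPA19 at -0.33. At equal totals, 887 were higher and 383 lower, with 2 of the 6 genes called, PSBW at -0.052 and LPA19 at -0.46. Centred arrays put PSBW at -0.46, and loess put PSAN at -0.59. Structural less assembly genes moved from 0.11 to -0.46 as deposited, at equal totals and with centred arrays, and to 0.41 with loess. The causes of these shifts were not tested. Restricting the test to probes brighter than the median left 733 calls (341 higher and 392 lower), with fewer probes tested. Leaving out a pair or a sample gave 526 to 1184 calls (257 to 516 higher and 269 to 672 lower) and 1 to 4 of the 6 genes called, lowest without samples 5 and 6, with fewer samples. In these fits PSAN ranged from -1.10 to -0.81, PSBW from 0.46 to 0.53 and LPA19 from -0.89 to -0.71. No member was at the floor, and the floor alternatives changed no call among the 6 genes.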
